A study of Drosophila melanogaster with 6 samples.

Results

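The transcripts described here were those whose level on the CG9740 knockdown arrays stood apart from both other groups of a 3-group experiment. They are 28 probe sets of the 18769 on the array that are not manufacturer's controls, of which 16 (0.0852%) were higher and 12 (0.0639%) lower after CG9740 knockdown. Drosophila melanogaster S2 cells, an embryonic line with hemocyte-like properties, received RNA interference (RNAi) against CG9740, against CP190, or against LacZ, the control. The control cells thus underwent RNAi too, against a bacterial gene that flies lack. Each group has 2 arrays, biological replicates by the series design, and values are log2 expression per probe set. The gene CG9740 carries the name Ibf2 in RefSeq (Release 6 assembly).

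Insulator proteins bind DNA elements that limit contact between enhancers and promoters and help to partition chromatin. CP190 does not recognise most of its sites by itself and is brought to chromatin by DNA-binding partners. Ibf1 and Ibf2 (insulator binding factors) are such partners, act together, and are encoded by adjacent genes.

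Members were chosen from the measured values. Both CG9740 arrays had to lie above, or both below, all 4 CP190 and LacZ arrays. The CG9740 mean had to differ by at least 0.4 on the log2 scale from the LacZ mean and from the CP190 mean, the CP190 and LacZ means had to lie within 0.4 of each other, and the highest group mean had to reach 6. The last condition held for 8961 probe sets. Since all 3 contrasts entered the choice, the members' differences are a description, and no test of them is given. Non-overlap is frequent by itself. Both CG9740 arrays lay above all 4 others in 4.4% of all probe sets and below them in 8.12%. A single gene symbol is paired with 24 of the 28 members, 15 of the higher and 9 of the lower ones. Probes ending in _s_at, which can be shared with transcripts of other genes, measure 6 members (scaf, stv, CG3857, Npc2b, Cyp40 and Col4a1). The same conditions with the groups exchanged held for 66 probe sets in CP190 RNAi alone, 36 higher and 30 lower, and for 106 in which both knockdowns stood apart from LacZ, 70 higher and 36 lower.

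The median log2 level of an array was 5.69 to 5.74, and Pearson's r across probe sets was 0.995 to 0.998 for every pair of arrays, where genes are no independent replicates. CG9740 replicate 2 (17.4) and LacZ replicate 2 (-21.2) lay at the opposite ends of the first principal component, and the other 4 arrays scored between -4.51 and 8.56. The absolute difference between the replicates had a median over all probe sets of 0.10 for CG9740, 0.10 for CP190 and 0.11 for LacZ. Over the 28 members the median was 0.29 for CG9740, 0.14 for CP190 and 0.20 for LacZ. The members' medians were thus the larger ones in every group, most of all for CG9740. The members were chosen from these same values and had to reach a group mean of 6, unlike all probe sets. Nothing is therefore read from this contrast. Of 11 hemocyte markers, genes typical of fly blood cells, all were measured. Every group mean was above 6 for srp, Hml, Pxn, eater, He, crq, Sr-CI, Col4a1 and ush. NimC1 stayed below 6, and vkg exceeded it only in CP190 RNAi (6.04). Such a level was not particular to hemocyte markers. Of 14 probe sets for markers of other cell types, 5 had a highest group mean of at least 6, among them the neuron marker elav.

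**Figure D1:**
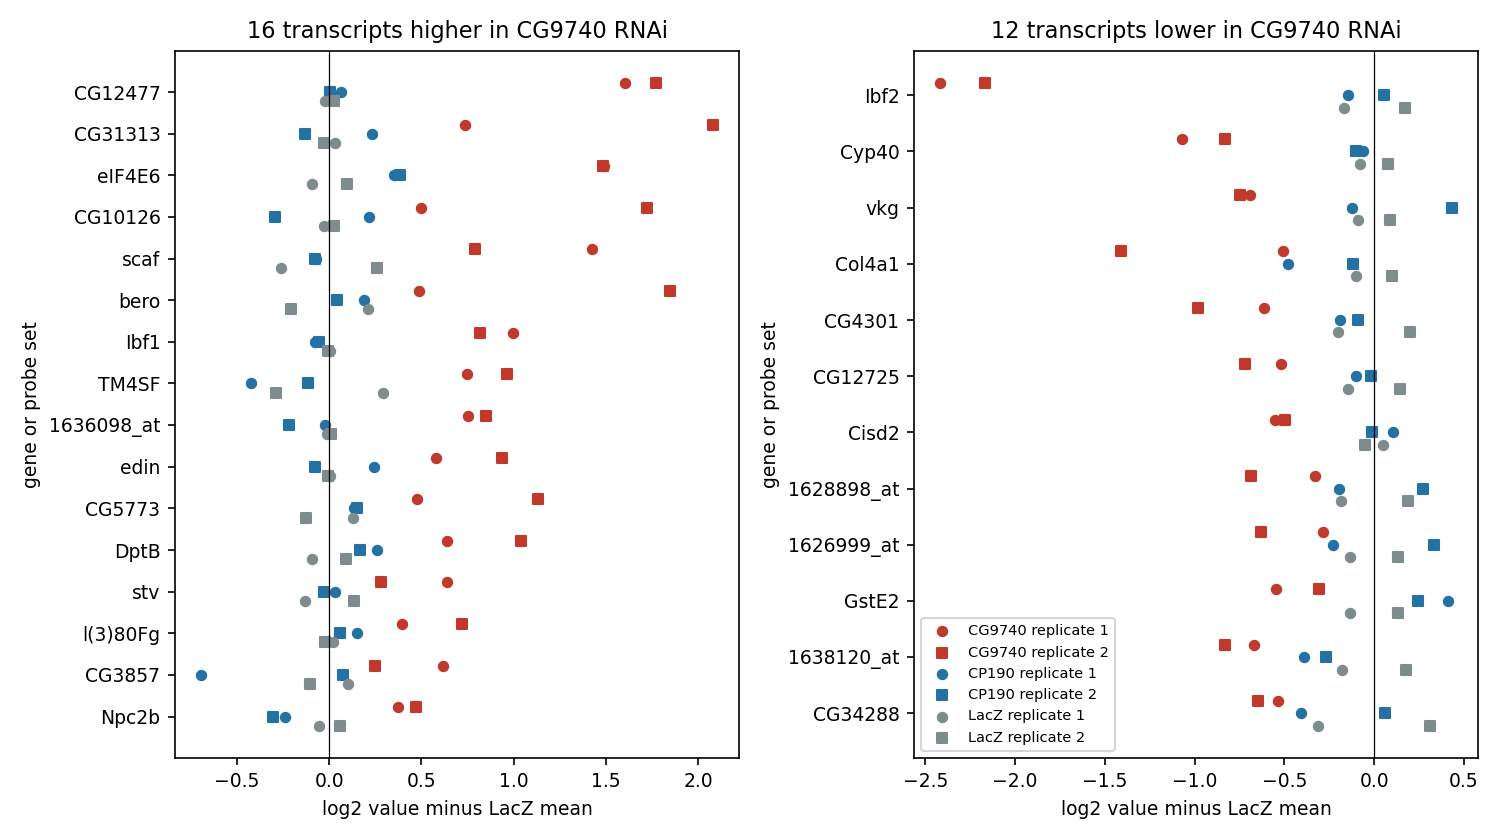
Log2 value of each member on each of the 6 arrays, minus the LacZ mean of that probe set (x axis), with higher members in the left panel and lower members in the right one, ordered by the smaller of their differences from CP190 and LacZ RNAi. Each point is 1 array, with circles for replicate 1 and squares for replicate 2. Both CG9740 points lie to 1 side of all other points in every line, with replicates far apart for CG31313, CG10126, bero and Col4a1.

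The RNAi target itself led the lower members. Ibf2 read 7.05 and 7.30 in CG9740 RNAi, against 9.33 and 9.52 for CP190 and 9.30 and 9.64 for LacZ. Both CG9740 arrays lay below every other array, by the widest gap among the lower members. The mean was 7.18 ± 0.18 in CG9740 RNAi, against 9.42 ± 0.14 for CP190 and 9.47 ± 0.24 for LacZ (SD, n = 2 each), 4.90-fold lower than in LacZ RNAi. The targeted transcript was thus low on both arrays labelled as its knockdown. Cp190, which is no member, read 11.80 and 11.54 in CG9740 RNAi, against 9.71 and 9.72 for CP190 and 11.81 and 11.92 for LacZ. It fell 4.42-fold in CP190 RNAi (limma adjusted p 0.000679), while its log2 change in CG9740 RNAi was -0.19 (limma adjusted p 0.633).

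Ibf1, the partner and direct neighbour of the target, was among the higher members. It read 9.57 and 9.39 in CG9740 RNAi, against 8.50 and 8.52 for CP190 and 8.58 and 8.57 for LacZ. The 4 other arrays spanned 0.08 on the log2 scale, and the lower CG9740 array lay 0.81 above them. The mean was 9.48 ± 0.13 in CG9740 RNAi, against 8.51 ± 0.02 for CP190 and 8.58 ± 0.01 for LacZ (SD, n = 2 each), 1.88-fold that of LacZ RNAi. On the other side of Ibf1, the neighbouring gene ATP6AP2, an accessory subunit of the proton pump V-ATPase, differed by -0.11 from LacZ RNAi and -0.04 from CP190 RNAi. On the other side of Ibf2, CG16736 differed by 0.21 and 0.38 at a level under 5, with both CG9740 arrays (4.85 and 4.80) above all 4 others. The 2 insulator factor genes thus lay on opposite sides of the control, while their measured neighbours differed by less than 0.4 from both groups.

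A list of insulator proteins had 51 probe sets for 25 of its 28 genes. Among these, limma called 1 higher (Ibf1) and 1 lower (Ibf2) in CG9740 RNAi against LacZ RNAi, where 0.0266% of all probe sets were called higher and 0.016% lower. Against CP190 RNAi limma called 2 higher, Ibf1 and Cp190 itself, and 1 lower, Ibf2, where 0.0426% of all probe sets were called higher and 0.0373% lower. The conditions had already chosen Ibf1 and Ibf2, so nothing is read from their calls. Without Ibf1 and Ibf2, the median log2 difference from LacZ RNAi was -0.08 over the other 49 probe sets and -0.02 over all probe sets. Many of the 49 measure the same gene, mod(mdg4), and all of its probe sets lay below LacZ RNAi. The median is therefore weighted towards that gene. Values for the other factors include su(Hw), the zinc finger protein of the gypsy insulator, at -0.21, the architectural protein BEAF-32 at -0.06, and 3 probe sets of CTCF between -0.18 and -0.02.

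**Figure D2:**
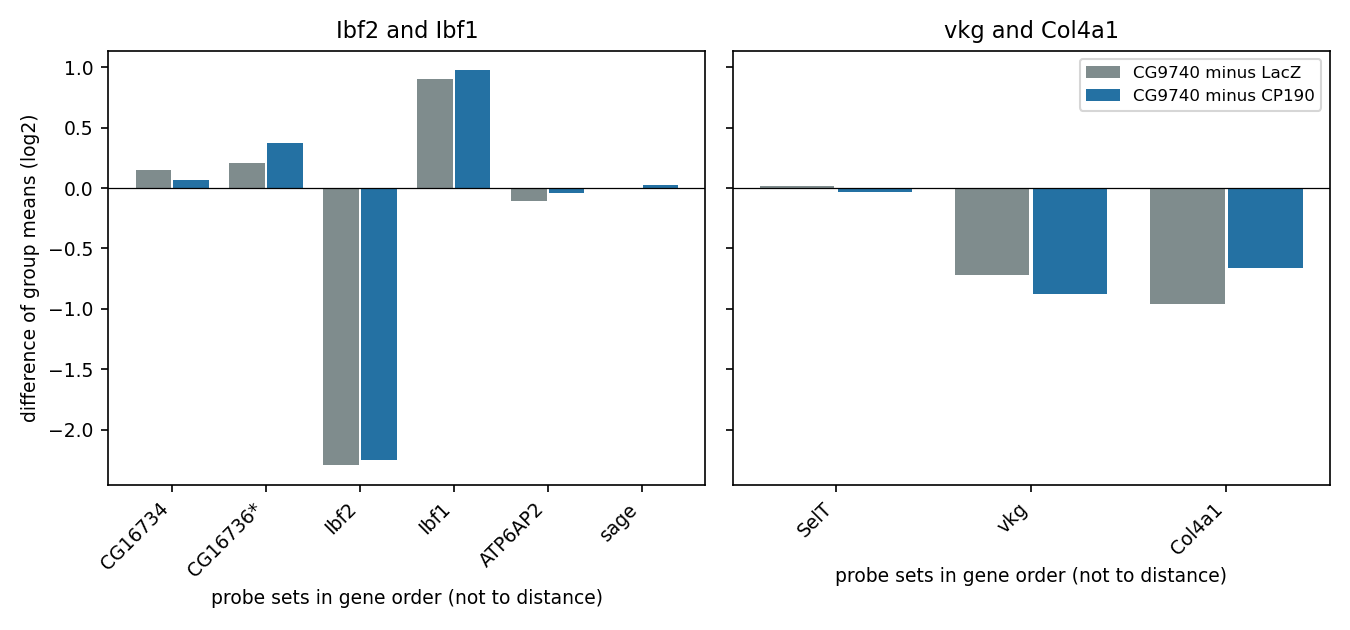
Differences of group means on the log2 scale (y axis) for probe sets around Ibf2 and Ibf1 and around vkg and Col4a1, in gene order on the x axis and not drawn to distance. Grey bars are CG9740 minus LacZ, blue bars are CG9740 minus CP190, and an asterisk marks a gene whose highest group mean is below 6. Ibf2 reaches -2.29 beside Ibf1 at 0.91, and both collagen genes lie below 0 while SelT lies near it.

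Of the other higher members, CG12477 was the most clearly separated. It read 6.74 and 6.91 in CG9740 RNAi, against 5.20 and 5.14 for CP190 and 5.11 and 5.16 for LacZ. The arrays of the 2 other groups spanned 0.09, and the nearest CG9740 array lay 1.54 above them. Both other levels were below the brightest of 27 probe sets for Bacillus transcripts (6.07), a mark of dim signal, so the difference of 1.69 from LacZ RNAi gives no exact fold. Of the 28 members, 8 had at least 1 group mean below that control, among them CG12477, CG31313, scaf and 1628898_at.

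The level of eIF4E6, one of several fly proteins of the family that binds the mRNA cap to start translation, was 7.89 on both CG9740 arrays. Its values were 6.76 and 6.79 for CP190 and 6.31 and 6.50 for LacZ. The mean was 2.80-fold that of LacZ RNAi. CP190 RNAi also lay above LacZ RNAi, by 0.37, close to the limit of 0.4 set for the choice, and without LacZ replicate 2 the gene was no longer a member.

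Several higher members owed much of their mean to 1 array. CG31313 read 6.36 and 7.71 in CG9740 RNAi, against 5.85 and 5.49 for CP190 and 5.65 and 5.59 for LacZ. Its CP190 and LacZ means (5.67 and 5.62) were below 6.07, so its difference gives no exact fold. CG10126 read 7.61 and 8.83 in CG9740 RNAi, against 7.33 and 6.81 for CP190 and 7.08 and 7.13 for LacZ. The gene bero, which encodes a small cell-surface protein of the Ly6 family, read 7.22 and 8.58 in CG9740 RNAi, against 6.92 and 6.77 for CP190 and 6.94 and 6.52 for LacZ. In these 3 genes replicate 2 exceeded replicate 1 by 1.23 to 1.36, about as much as the mean difference from LacZ RNAi (1.11 to 1.41). Without CG9740 replicate 2, bero was no longer a member.

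The opposite order held for scaf (scarface), a secreted serine protease homologue that acts downstream of JNK signalling in dorsal closure of the embryo. It read 7.52 and 6.89 in CG9740 RNAi, against 6.03 and 6.03 for CP190 and 5.84 and 6.36 for LacZ. Replicate 1 was the higher of its CG9740 arrays, and the lower one lay 0.53 above the nearest other array. The gene of a tetraspanin family membrane protein, TM4SF, read 8.96 and 9.18 in CG9740 RNAi, against 7.79 and 8.10 for CP190 and 8.51 and 7.93 for LacZ. The 4 other arrays spanned 0.71, and the gap to the nearest CG9740 array was 0.45. TM4SF was no longer a member without CP190 replicate 2 or LacZ replicate 2.

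The gene edin (elevated during infection), which encodes a short secreted protein induced by bacteria, read 10.26 and 10.62 in CG9740 RNAi, against 9.92 and 9.61 for CP190 and 9.69 and 9.68 for LacZ. DptB, the antibacterial peptide diptericin B and a target of the Imd pathway, read 9.30 and 9.70 in CG9740 RNAi, against 8.92 and 8.83 for CP190 and 8.57 and 8.75 for LacZ. Their means were 1.69-fold and 1.79-fold those of LacZ RNAi, the gaps to the nearest other array were 0.34 and 0.38, and both stayed members without any 1 array.

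The Toll and Imd pathways are the main routes by which fly cells sense microbes, through the NF-κB factors Dif, dl and Rel, to induce antimicrobial peptides. Of 38 genes listed for them, 21 were measured by 24 probe sets. By limma, 0 of these were called against LacZ RNAi or against CP190 RNAi, where 0.0426% and 0.0799% of all probe sets were called. A count of 0 in 24 is no result about the list. Without the member DptB, 2 of the other 23 probe sets were higher and 3 lower than in LacZ RNAi at an unadjusted p under 0.05, where 4.04% of all probe sets were higher and 4.55% lower. Against CP190 RNAi 2 of the 23 were higher and 1 lower, where the shares of all probe sets were 1.79% and 2.85%. The median difference of the 23 from LacZ RNAi was 0.01, against -0.02 over all probe sets.

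Single peptides differed in their pattern. Mtk, the antifungal peptide metchnikowin, read 10.80 and 11.13 in CG9740 RNAi, against 10.71 and 10.60 for CP190 and 10.40 and 10.41 for LacZ. Both CG9740 arrays were the highest, but the mean lay only 0.31 above that of CP190 RNAi, under the limit. The recognition protein gene PGRP-SB1 read 7.96 and 10.12 in CG9740 RNAi, against 8.50 and 7.99 for CP190 and 7.67 and 6.46 for LacZ. Its CG9740 arrays lay above both LacZ arrays but overlapped with CP190. For Drs, the antifungal peptide drosomycin, and CecB, a cecropin, the CG9740 arrays overlapped with LacZ. The NF-κB genes Dif, Rel and dl differed from LacZ RNAi by 0.01, -0.12 and, in both dl probe sets, -0.19.

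**Figure D3:**
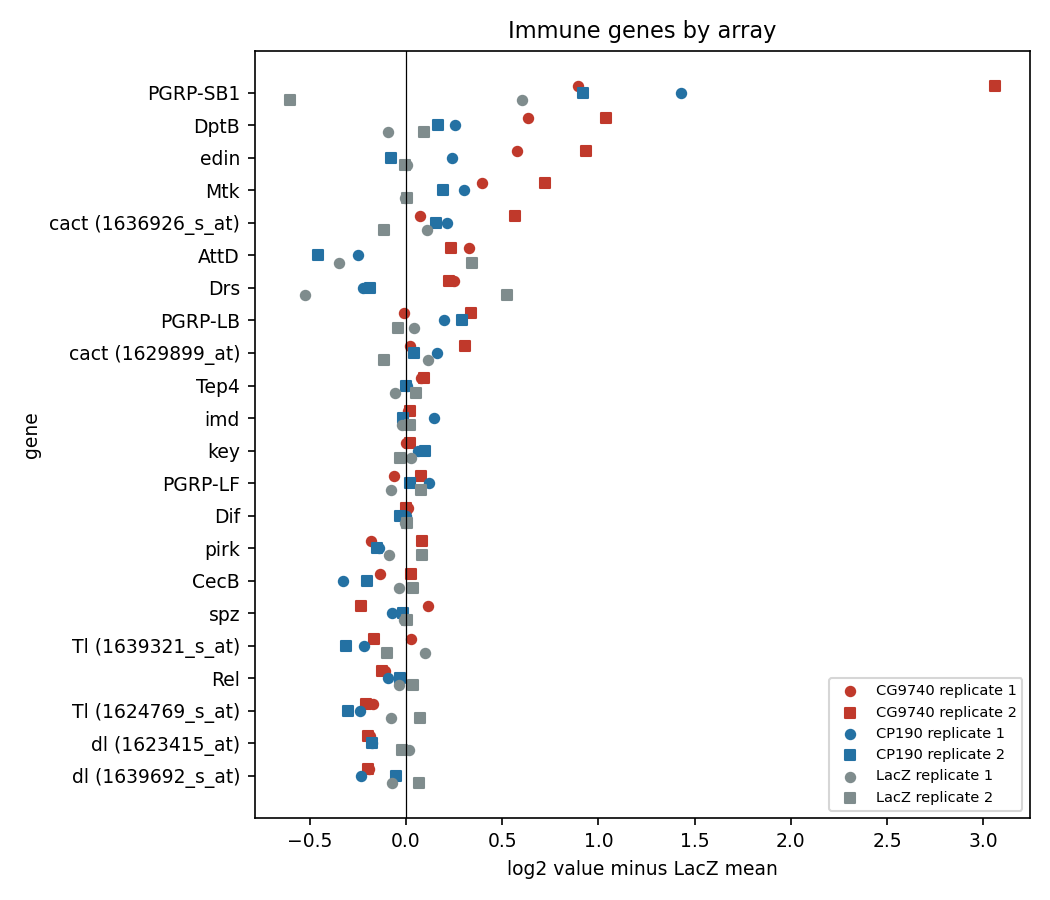
Log2 value on each array minus the LacZ mean (x axis) for edin and for the listed Toll and Imd genes with a highest group mean of at least 6, ordered by the difference between CG9740 and LacZ RNAi. Each point is 1 array, with circles for replicate 1 and squares for replicate 2. The CG9740 arrays of DptB, edin, Mtk and, by a small margin, Tep4 lie above all others, and DptB and edin were chosen for this. PGRP-SB1 has 1 CG9740 array at 10.12 and 1 at 7.96, below both CP190 arrays.

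The gene stv (starvin), a co-chaperone that regulates Hsc70 proteins, read 7.37 and 7.01 in CG9740 RNAi, against 6.77 and 6.71 for CP190 and 6.60 and 6.87 for LacZ. Its gap was only 0.15, and it was no longer a member without CG9740 replicate 1 or LacZ replicate 1. Among the lower members, Cyp40, a cyclophilin of the peptidyl-prolyl isomerases, had the widest gap after the target. It read 7.66 and 7.90 in CG9740 RNAi, against 8.67 and 8.63 for CP190 and 8.66 and 8.81 for LacZ. The gap was 0.73, wider than the 0.18 spanned by the other arrays, and the mean was 1.93-fold lower than in LacZ RNAi.

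The list of heat shock and stress genes gave 19 probe sets for 17 of 32 genes. By limma 0 were called against either group, where 0.0426% of all probe sets were called against LacZ RNAi and 0.0799% against CP190 RNAi. A count of 0 in 19 is no result about the list. Without the member stv, 2 of the other 18 were higher and 0 lower than in LacZ RNAi at an unadjusted p under 0.05, against 4.04% and 4.55% of all probe sets. Against CP190 RNAi it was 0 in either direction, where the shares of all probe sets were 1.79% and 2.85%. The median difference of the 18 from LacZ RNAi was 0.03. The largest differences from LacZ RNAi were those of the glutathione S-transferase genes GstD2 (1.53) and GstD1 (0.63), which differed from CP190 RNAi by 0.27 and 0.21. The chaperone genes Hsp26, Hsp27 and Hsp68 differed from LacZ RNAi by 0.05, 0.21 and 0.05.

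Both collagen IV genes, vkg (viking) and Col4a1, were lower members. They encode the chains of the main collagen of fly basement membranes, which hemocytes and fat body secrete, and are neighbours in the genome. Col4a1 read 9.37 and 8.47 in CG9740 RNAi, against 9.40 and 9.76 for CP190 and 9.78 and 9.98 for LacZ. Its gap to the nearest other array was only 0.03, and without CG9740 replicate 2 or CP190 replicate 2 it was no longer a member. The vkg probe set read 5.20 and 5.14 in CG9740 RNAi, against 5.76 and 6.32 for CP190 and 5.80 and 5.98 for LacZ. Its 3 group means were all below the brightest Bacillus control, and its place depended on either CP190 array. SelT, the gene next to vkg, differed by 0.02 from LacZ RNAi and -0.04 from CP190 RNAi.

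Both collagen genes are also hemocyte markers, and fewer cells of a type and less RNA per cell cannot be told apart in these samples. The 10 probe sets of the other 9 hemocyte markers differed from LacZ RNAi by -0.46 to 0.13, with 9 of them lower, where 56.9% of all probe sets were lower. Against CP190 RNAi 6 of the 10 were lower, where 54.9% of all probe sets were, and Hml lay 0.58 above it. Their summed log2 levels were 92.1 and 89.9 for CG9740, 90.4 and 92.2 for CP190 and 93.2 and 91.9 for LacZ, and overlapped between groups. The lowest of these 6 sums belonged to CG9740 replicate 2, the array with the lowest Col4a1 level. Pxn, the matrix enzyme peroxidasin, read 12.03 and 11.21 on its brighter probe set in CG9740 RNAi, against 11.96 and 12.21 for CP190 and 12.19 and 11.97 for LacZ. Other lists without their members leaned either way. Below LacZ RNAi were 16 of 19 cell cycle and 43 of 49 insulator probe sets. For small RNA machinery it was 2 of 13, and for heat shock and stress genes 6 of 18. The cell cycle and insulator lists thus also leaned below LacZ RNAi, and the insulator count is weighted towards the many probe sets of mod(mdg4). The part of hemocyte genes in the collagen result was not tested.

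Of the other genes on the extracellular matrix and adhesion list, trol, which encodes the basement membrane proteoglycan perlecan, was the only one with probe sets above LacZ RNAi. The list had 31 probe sets for 19 of 20 genes. By limma 0 were called against either group, where 0.0426% of all probe sets were called against LacZ RNAi and 0.0799% against CP190 RNAi. A count of 0 in 31 is no result about the list. Without both collagen members, which the conditions chose for being lower, 29 probe sets remained. Of these, 5 were higher and 3 lower than in LacZ RNAi at an unadjusted p under 0.05, against 4.04% and 4.55% of all probe sets. Against CP190 RNAi 0 were higher and 4 lower, where the shares of all probe sets were 1.79% and 2.85%. The 5 higher ones all belonged to trol, whose 8 probe sets ran from -0.26 to 1.16 against LacZ RNAi, with 7 above 0, and from -0.57 to 0.33 against CP190 RNAi. The 21 probe sets of the other 16 genes were all below LacZ RNAi, by a median difference of -0.17, and 16 of them were below CP190 RNAi, with a median of -0.09. This split by trol was made after the values were seen. Some lists of other themes also leaned below LacZ RNAi and others above it, as given with the hemocyte markers. LanA, LanB1 and LanB2, the laminin genes, differed from LacZ RNAi by -0.20, -0.08 and -0.18.

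GstE2, a glutathione S-transferase that detoxifies reactive compounds, read 10.87 and 11.11 in CG9740 RNAi, against 11.83 and 11.67 for CP190 and 11.28 and 11.55 for LacZ. The CP190 arrays were the highest, 0.33 above LacZ RNAi on average. GstE2 was no longer a member without CG9740 replicate 1, CP190 replicate 2 or LacZ replicate 2. Its neighbour of the same family, GstE3, read 10.84 and 11.38 in CG9740 RNAi, against 11.06 and 10.84 for CP190 and 10.83 and 10.41 for LacZ. Its CG9740 arrays overlapped with CP190 and lay above both LacZ arrays, with a mean difference of 0.49, the opposite direction to GstE2. GstE1, on the other side, differed from LacZ RNAi by -0.03. Cisd2, which encodes an iron-sulphur protein of the endoplasmic reticulum and mitochondria, had small but tight differences. It read 11.88 and 11.93 in CG9740 RNAi, against 12.53 and 12.42 for CP190 and 12.48 and 12.38 for LacZ, with a gap of 0.45 where the other arrays spanned 0.15.

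Among the other lower members, CG4301 read 7.35 and 6.98 in CG9740 RNAi, against 7.77 and 7.87 for CP190 and 7.76 and 8.16 for LacZ. CG12725 read 5.53 and 5.33 in CG9740 RNAi, against 5.95 and 6.04 for CP190 and 5.91 and 6.20 for LacZ, with all 3 means in the dim range. CG4301 stayed a member without any 1 array, and CG12725 did not without LacZ replicate 2. CG34288 read 6.50 and 6.40 in CG9740 RNAi, against 6.64 and 7.10 for CP190 and 6.73 and 7.35 for LacZ, a gap of 0.13. It was no longer a member without CG9740 replicate 2, CP190 replicate 2 or either LacZ array. The probe sets 1628898_at, 1626999_at and 1638120_at, which are unnamed here, had mean differences from LacZ RNAi of -0.51, -0.46 and -0.75 and gaps of 0.06 to 0.28 in size. None of them stayed a member without CG9740 replicate 2 or without CP190 replicate 2.

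Npc2b, of a family of sterol-binding proteins, read 9.24 and 9.34 in CG9740 RNAi, against 8.62 and 8.56 for CP190 and 8.81 and 8.92 for LacZ. The CP190 arrays were the lowest, so its difference was larger from CP190 RNAi (0.70) than from LacZ RNAi (0.42). Npc2b was no longer a member without CG9740 replicate 2 or LacZ replicate 1. CG5773 read 6.31 and 6.97 in CG9740 RNAi, against 5.97 and 5.98 for CP190 and 5.96 and 5.71 for LacZ. The unnamed probe set 1636098_at read 6.61 and 6.71 in CG9740 RNAi, against 5.84 and 5.64 for CP190 and 5.85 and 5.87 for LacZ. Both were dim outside CG9740 RNAi, with CP190 and LacZ means below 6.07. CG5773 was no longer a member without CG9740 replicate 2, while 1636098_at stayed one without any 1 array.

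Only 2 member genes had another probe set of the same single gene, which the rule did not choose. For l(3)80Fg the member read 7.62 and 7.95 in CG9740 RNAi, against 7.37 and 7.28 for CP190 and 7.25 and 7.20 for LacZ. Its other probe set, of the _x_at kind, read 7.74 and 7.95 in CG9740 RNAi, against 7.54 and 7.46 for CP190 and 7.56 and 7.33 for LacZ. Both CG9740 arrays were the highest there too, with differences of 0.40 from LacZ RNAi and 0.35 from CP190 RNAi. Without CG9740 replicate 2 the member probe set of l(3)80Fg was no longer chosen. For CG3857 the member read 9.74 and 9.37 in CG9740 RNAi, against 8.42 and 9.19 for CP190 and 9.22 and 9.02 for LacZ. The other probe set of CG3857 differed by 0.17 from LacZ RNAi and -0.02 from CP190 RNAi. The 2 probe sets of CG3857 therefore gave different pictures of the same gene. Its member probe set was no longer chosen without CG9740 replicate 1, LacZ replicate 2 or either CP190 array.

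Positions were compared through the gene order of the reference table. All 24 named members were placed, and their nearest protein-coding neighbours on either side were measured by 49 probe sets. Only 4 of these were themselves members, the pairs of Ibf2 with Ibf1 and of vkg with Col4a1. Of the other 45, 29 had a highest group mean of at least 6, and 0 of these differed by at least 0.4 from both groups in 1 direction. The same held for 0.625% of the 8961 probe sets at that level, so a count of 0 in 29 is no result about neighbours. Their differences from LacZ RNAi had a median of -0.00 and ran from -0.21 (ken) to 0.49 (GstE3).

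**Figure D4:**
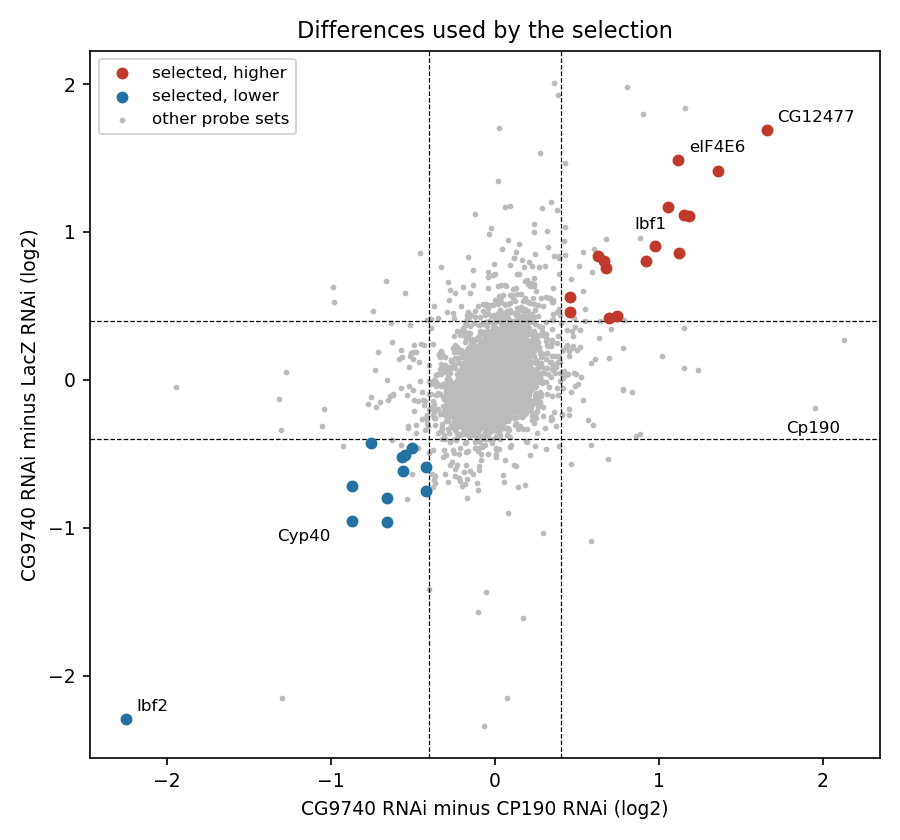
Difference of CG9740 from CP190 RNAi (x axis, log2) against the difference of CG9740 from LacZ RNAi (y axis, log2) for the 8961 probe sets with a highest group mean of at least 6. Red points are the 16 higher members, blue points the 12 lower ones, grey points all others, and dashed lines mark the limit of 0.4. Grey points beyond the lines in a corner failed another condition, and the shared CG9740 arrays tie both axes together.

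Over all members, differences from LacZ RNAi ran from 0.42 to 1.69 with a median of 0.85 for the higher ones and from -2.29 to -0.43 with a median of -0.67 for the lower ones. Differences from CP190 RNAi ran from 0.46 to 1.66 with a median of 0.95 and from -2.25 to -0.42 with a median of -0.61. Both differences reached 1 in 6 higher members (CG12477, CG31313, eIF4E6, CG10126, scaf and bero) and in 1 lower member, Ibf2. The gap between the nearest CG9740 array and the nearest other array exceeded the span of the 4 other arrays in 16 of 28 members. The conditions favour such gaps, so nothing is read from this count. Over all probe sets, 12.5% had both CG9740 arrays above or below all 4 others, and the share with so wide a gap is not given here.

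Just inside the limit of 0.4 the smaller differences were 0.42 for Npc2b, 0.43 for CG3857 and 0.46 for l(3)80Fg among higher members, and 0.42 for CG34288, 0.42 for 1638120_at and 0.43 for GstE2 among lower ones. Just outside it were dhd (0.39), CG8745 (0.38) and nrv2 (0.36) above, and CG31219 (0.38), CG14984 (0.36) and CG14273 (0.36) below. No step in the values marks the limit.

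By limma, 5 members were called against LacZ RNAi and the same 5 against CP190 RNAi (CG12477, eIF4E6, Ibf1, Ibf2 and Cyp40), and 1636098_at was called against CP190 RNAi alone. Over all probe sets 0.0426% were called against LacZ RNAi. Against CP190 RNAi it was 0.0799%, 0.0426% higher and 0.0373% lower. The choice of members used both contrasts, so nothing is read from these counts. Between CP190 and LacZ RNAi, 0 members and 0.0799% of all probe sets were called, 0.0373% higher and 0.0426% lower, where the choice itself required close means.

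Single arrays decided part of the membership. Of the 28 members, 12 were chosen again without any 1 array, 8 higher (CG12477, CG31313, CG10126, scaf, Ibf1, 1636098_at, edin and DptB) and 4 lower (Ibf2, Cyp40, CG4301 and Cisd2). Without CG9740 replicate 2, 12 of the 16 higher and 7 of the 12 lower members remained. Without CG9740 replicate 1 the conditions chose 119 higher and 65 lower probe sets, without CP190 replicate 1 they chose 32 and 30, and without CP190 replicate 2 they chose 14 and 6. With 1 CG9740 array the condition on both arrays is looser by construction.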

How the data were processed

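Labelled RNA was hybridised to Affymetrix arrays after whole transcriptome amplification, per the labels' protocols. The deposited log2 values, 1 per probe set and array (18952 rows), were made by the authors with GCOS and RMA, per the submitters' processing notes. The range of the values (2.02 to 14.2) showed the log2 scale, and the version of either program is not given in the sources used here. RMA leaves background in dim probe sets, which compresses their differences. The 183 control probe sets were left out, all 6 columns were used, and the number of arrays limits the precision.

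Groups come from the sample titles. The platform annotation pairs 13646 of the 18769 tested probe sets with 1 gene symbol, 402 with several and 4721 with none, and 13543 of the first matched the RefSeq table (Release 6) by gene ID. The files name no build, so that table served for names and gene order only. No sequences are shown.

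Group means were estimated for all probe sets from all arrays with limma 3.58.1 (R 4.3.3, eBayes defaults), two-sided, with Benjamini-Hochberg adjustment over all probe sets and a limit of 0.05. The fit was tested on simulated data, and the selection on a few made-up rows. Members, lists and tests were chosen with earlier results of these data known. The text names members by the smaller of their 2 differences, members of the lists, the RNAi targets and the probe sets next to the limit. Other values were named after they were seen. Lists for small RNA machinery, ecdysone response, cell cycle, Hox and Polycomb genes, and lamellocyte, crystal cell and other cell type markers held 0 members and 0 limma calls, with 1 of 13, 3 of 37, 1 of 19, 1 of 16, 0 of 4, 1 of 4 and 0 of 14 probe sets at an unadjusted p under 0.05 against LacZ RNAi, where 4.04% of all probe sets were higher and 4.55% lower. With 0.0426% of all probe sets called against LacZ RNAi and 0.0799% against CP190 RNAi, 0 calls are no result about these lists. The same replicate numbers recur in every group without a stated pairing. Alternatives covered the limits of the selection, the normalization, a replicate block, dim probe sets, the variance model, the groups in the fit and each array left out. Figures were drawn with matplotlib 3.10.9.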

Additional observations from a re-analysis of the deposited data

Results flagged for a closer look

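A control probe set outside the comparisons, AFFX-Dm-AJ132968-1_at, met the conditions for a higher member apart from the floor of 6, the only 1 of 183 controls to do so. It read 4.21 and 5.35 in CG9740 RNAi, against 3.26 and 3.39 for CP190 and 3.48 and 3.10 for LacZ, a difference of 1.49 from LacZ RNAi. Every array was dimmer here than the brightest Bacillus control (6.07), and no gene is named for it here.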

How the results depend on the processing

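The selection gave 16 higher and 12 lower probe sets. A limit of 0.3 gave 27 and 25, no floor gave 27 higher, and leaving out 1 array gave 14 to 119 higher and 6 to 65 lower. A limit of 0.5, a closer match of CP190 and LacZ, a floor of 7, quantile normalization and median centring moved neither count by over 1.5 times. All 28 members were chosen again under both normalizations. The members' differences kept their sign in all 448 repeats. With 1 array left out this was certain in advance, because the conditions require groups that do not overlap. Nothing is read from that count.

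Limma calls, in the order CG9740 against LacZ, CG9740 against CP190 and CP190 against LacZ, were 8, 15 and 15. They ranged from 3 to 43, 3 to 21 and 0 to 37 with 1 array left out. The first comparison gave 43 without CG9740 replicate 1 and 3 without CG9740 replicate 2, the second gave 3 without CP190 replicate 2, and the third gave 37 without either CG9740 array. The 0 arose without CP190 replicate 1, with 1215 probe sets at an unadjusted p under 0.05. The replicate block gave 4, 4 and 2. The deviations from group means of arrays with 1 number had an r of -0.191 between CG9740 and CP190, -0.315 between CG9740 and LacZ and 0.155 between CP190 and LacZ, so a pairing by number was not shown. A replicate block with CG9740 numbers crossed gave 72, 43 and 134, and was chosen after seeing the data. An intensity trend gave 26 and 31 in the last 2 comparisons, a fit of only the groups compared gave 5 in the first and 37 in the third, and a floor of 6 gave 9 in the third. The cause was not tested.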
